A study of Rattus norvegicus with 24 samples.

Results

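The transcripts of Kif13a, Pxmp4, Larp6, Creg1, Slc13a3 and RGD1309362 were followed across the brain of 4 groups of rats. They were chosen by their signal in the spontaneously hypertensive rat (SHR), which lay far above that in the Wistar-Kyoto rat (WKY), and they are 6 of the 14217 genes that the array names. In that order of differences, over genes with an adjusted p under 0.05 and 1 sign in all 6 regions, they hold ranks 2 to 7. Slc13a3 is the last of them, with a log2 difference of 2.01. Just beyond it lay Chi3l1 at 2.00 and Ramp2 at 1.965, and Ephx2 at 3.33 lay above all 6. The difference between SHR and WKY is therefore given below as a description, without a test. The contrast itself holds no array of Sprague-Dawley rats, but the filter on mean signal and the adjusted p drew on all 24 arrays. On the log2 scale, Sprague-Dawley signal lay nearer to SHR than to WKY in 32 of 36 pairs of transcript and region in unexposed rats. In rats exposed to polychlorinated biphenyls it did so in 35 of 36. These pairs share rats. On the linear scale fewer pairs lie nearer to SHR. Pxmp4 in prefrontal cortex, for example, gave 558 in SHR, 241 in unexposed Sprague-Dawley rats and 60.1 in WKY. By mean log2 signal over regions, unexposed rats lay nearer to SHR in 33.2% of the 2542 probe sets called higher in SHR. They did so in 15 of the 17 called with a log2 difference of at least 2, which include the 6.

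The arrays come from male rats at postnatal day 55 to 65. There were 8 SHR, an inbred strain used as a genetic model of attention deficit hyperactivity disorder, and 8 WKY, a strain related to SHR. A further 8 were outbred Sprague-Dawley rats (SD), and 4 of the same outbred stock were given polychlorinated biphenyls (SD-PCB). Neither dose nor timing of the exposure is given in the sources used here. Each group gave 1 array for each of 6 regions: cerebellar vermis, hippocampus, prefrontal cortex, both the dorsal and the ventral striatum, and the midbrain area of substantia nigra and ventral tegmental area (VTA). This makes 24 arrays with no replicate of a region within a group, and the 6 arrays of a group come from the same rats. Every p-value between groups below therefore measures agreement between regions and is too small for a statement about animals or strains. A p-value between regions measures agreement between the 4 groups, with 1 array each, and is no statement about animals. The labels do not say whether the RNA of several animals was pooled on an array.

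The products of these genes work in different places. Kif13a is a motor of the kinesin-3 family that carries vesicles along microtubules, among them vesicles with mannose 6-phosphate receptors. Pxmp4 lies in the membrane of peroxisomes, the organelles that shorten very long fatty acids and break down hydrogen peroxide. Larp6, a La-related protein, binds a stem-loop in the messenger RNAs of type I collagen. Creg1 is a glycoprotein that is secreted and also found in lysosomes. Slc13a3 is a sodium-coupled carrier of dicarboxylates such as succinate, which also takes up N-acetylaspartate. RGD1309362 has the synonym Ifgga1 in the RefSeq annotation, and no role is stated for it here.

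The 6 genes lie apart in the genome. In the GRCr8 annotation Kif13a is on chromosome 17, Larp6 on chromosome 8, Creg1 on chromosome 13 and RGD1309362 on chromosome 18, while Pxmp4 and Slc13a3 are both on chromosome 3. The 6 transcripts were chosen for the same difference between SHR and WKY, and whether they share regulation was not tested. As a description, the 150 bases before the start of each gene are shown for 5 of them. The set of such windows for GRCr8 holds no entry for RGD1309362. That assembly is from a BN rat, not from a strain measured here. The sequences run 5′ to 3′ along the gene's strand, and capitals mark matches on either strand to the CCAAT box (CCAAT), the GC box (GGGCGG), the TATA box (TATAAA), the E-box (CACGTG) and the cyclic AMP element (TGACGTCA).
Kif13a, chr17:17972703-17972852, plus strand: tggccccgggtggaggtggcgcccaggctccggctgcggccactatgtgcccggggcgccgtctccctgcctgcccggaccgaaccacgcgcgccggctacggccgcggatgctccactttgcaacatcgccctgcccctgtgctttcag
Pxmp4, chr3:163570830-163570979, minus strand: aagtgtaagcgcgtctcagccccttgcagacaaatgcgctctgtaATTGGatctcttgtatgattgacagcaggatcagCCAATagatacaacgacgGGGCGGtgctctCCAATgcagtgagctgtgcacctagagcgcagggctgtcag
Larp6, chr8:70079603-70079752, plus strand: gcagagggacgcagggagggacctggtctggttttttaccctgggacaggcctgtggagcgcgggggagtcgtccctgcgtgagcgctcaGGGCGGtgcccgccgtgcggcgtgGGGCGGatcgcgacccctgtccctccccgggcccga
Creg1, chr13:80552671-80552820, plus strand: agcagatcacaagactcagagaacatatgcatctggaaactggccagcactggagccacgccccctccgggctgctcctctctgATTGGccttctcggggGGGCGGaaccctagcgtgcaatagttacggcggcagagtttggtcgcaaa
Slc13a3, chr3:174623894-174624043, minus strand: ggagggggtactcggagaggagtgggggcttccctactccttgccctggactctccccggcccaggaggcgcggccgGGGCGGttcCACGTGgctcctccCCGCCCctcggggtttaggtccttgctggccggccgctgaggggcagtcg

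No motif of these was found in all 5 windows. The Pxmp4 window holds 3 CCAAT boxes and 1 GC box, the Creg1 window 1 of each, the Larp6 window 2 GC boxes, and the Slc13a3 window 2 GC boxes and 1 E-box, while the Kif13a window holds no match. Over 33469 windows of the same length in that set, 23.5% hold a CCAAT box and 26.0% a GC box. A TATA box is held by 8.00%, an E-box by 3.74% and the cyclic AMP element by 1.36%. A match describes the letters of the window only.

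Each gene was read through its brightest probe set, the group of short array probes that reports 1 transcript, and signals are linear MAS5 units. Median signal over all probe sets ranged from 131.7 to 178 on the SHR arrays, 109 to 153 on WKY, 131 to 184 on SD and 89.0 to 126 on SD-PCB, so it moved with the groups, and its part in the values below was tested only as the alternatives at the end give it. Of the markers chosen as checks of the region labels, some set apart striatum, midbrain, vermis and hippocampus: Drd1 was at least 4870 in dorsal striatum and at most 708 outside the striatum, Slc6a3 at least 955 in substantia nigra/VTA and at most 122 elsewhere, Pcp2 at least 9371 in vermis and at most 668 elsewhere, and Fibcd1 at least 636 in hippocampus and at most 185 elsewhere. Th did not fully set apart substantia nigra/VTA, since its lowest array there, at 217, lay below its highest elsewhere. For prefrontal cortex Tbr1 stayed at or below 62.0, and Slc17a7 was at most 2709 there and up to 3326 elsewhere, so these markers did not set that region apart.

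Kif13a was bright in 3 groups and dim in WKY. Its signal ran from 1029.8 to 4160 with a median of 1632 in SHR, from 1221 to 3781 with a median of 1657 in SD, from 869.7 to 3865 with a median of 2612 in SD-PCB, and from 252 to 859.6 with a median of 292 in WKY. Even the highest WKY array, the vermis, lay below the lowest array of each other group. SHR minus WKY was 2.40 ± 0.16 on the log2 scale (standard error of the limma fit, n = 6 regions), a ratio of means of 5.30. SHR and SD overlapped throughout, with SHR higher in 2 of 6 regions and a log2 difference of -0.10 ± 0.16.

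Pxmp4 fell into 3 levels in its brightest probe set. It gave 377 to 670.4 in SHR (median 487), 241 to 316 in SD (median 291), 199.96 to 374 in SD-PCB (median 320.2) and 32.4 to 139 in WKY (median 68.0). All SHR arrays lay above all arrays of both Sprague-Dawley groups, and all of those lay above all WKY arrays. High SHR and low WKY values chose this transcript, and the share of probe sets with such an order was not counted. The order is therefore a description only. The ratio of means was 6.61 for SHR over WKY and 1.76 for SHR over SD. The log2 difference of SHR minus WKY, 2.84 ± 0.26, ranged from 1.43 in ventral striatum to 4.33 in substantia nigra/VTA.

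Larp6 gave 268 to 832 in SHR (median 694), 415 to 1004 in SD (median 533), 308 to 1091 in SD-PCB (median 726) and 71.9 to 255 in WKY (median 108). The ranges of SHR, SD and SD-PCB lay over each other, and no WKY array reached them. The mean of SHR over that of WKY was 4.74, and over that of SD it was 0.998. SHR minus SD was within its error of 0 (-0.0016 ± 0.28), and SHR was higher in 3 of 6 regions.

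Creg1, the lysosomal glycoprotein, gave 764 to 1127 in SHR (median 885), 563 to 960.0 in SD (median 654), 514 to 710.0 in SD-PCB (median 579) and 128 to 369 in WKY (median 239). WKY lay below every other array, and SHR lay above SD in 5 of 6 regions with overlapping ranges. SHR minus WKY was 2.02 ± 0.17 and SHR minus SD 0.40 ± 0.17.

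RGD1309362 gave 110.3 to 330.3 in SHR (median 279), 110.4 to 377 in SD (median 221), 116 to 255 in SD-PCB (median 163) and 8.59 to 74.4 in WKY (median 39.7). No WKY array overlapped another group. The log2 difference of SHR minus WKY was 0.56 in vermis, where SHR gave 110.3, and 4.71 in ventral striatum, where WKY gave 8.59. Without detection calls such dim WKY signals, and those of Pxmp4 from 32.4, cannot be told from background, so the size of these differences is uncertain.

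Slc13a3 was the one transcript whose WKY range ran into the others. It gave 251 to 1230.4 in SHR (median 451), 104 to 1129 in SD (median 278), 297 to 918 in SD-PCB (median 478) and 75.5 to 420 in WKY (median 106). The overlap with SHR and SD-PCB came from substantia nigra/VTA, where the WKY array reached 420, its highest. SD overlapped in other regions as well, with 104 in dorsal striatum against 169 in the ventral striatum of WKY. Within each region SHR still lay above WKY in 6 of 6, and SHR minus WKY was 2.01 ± 0.26.

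**Figure D1:**
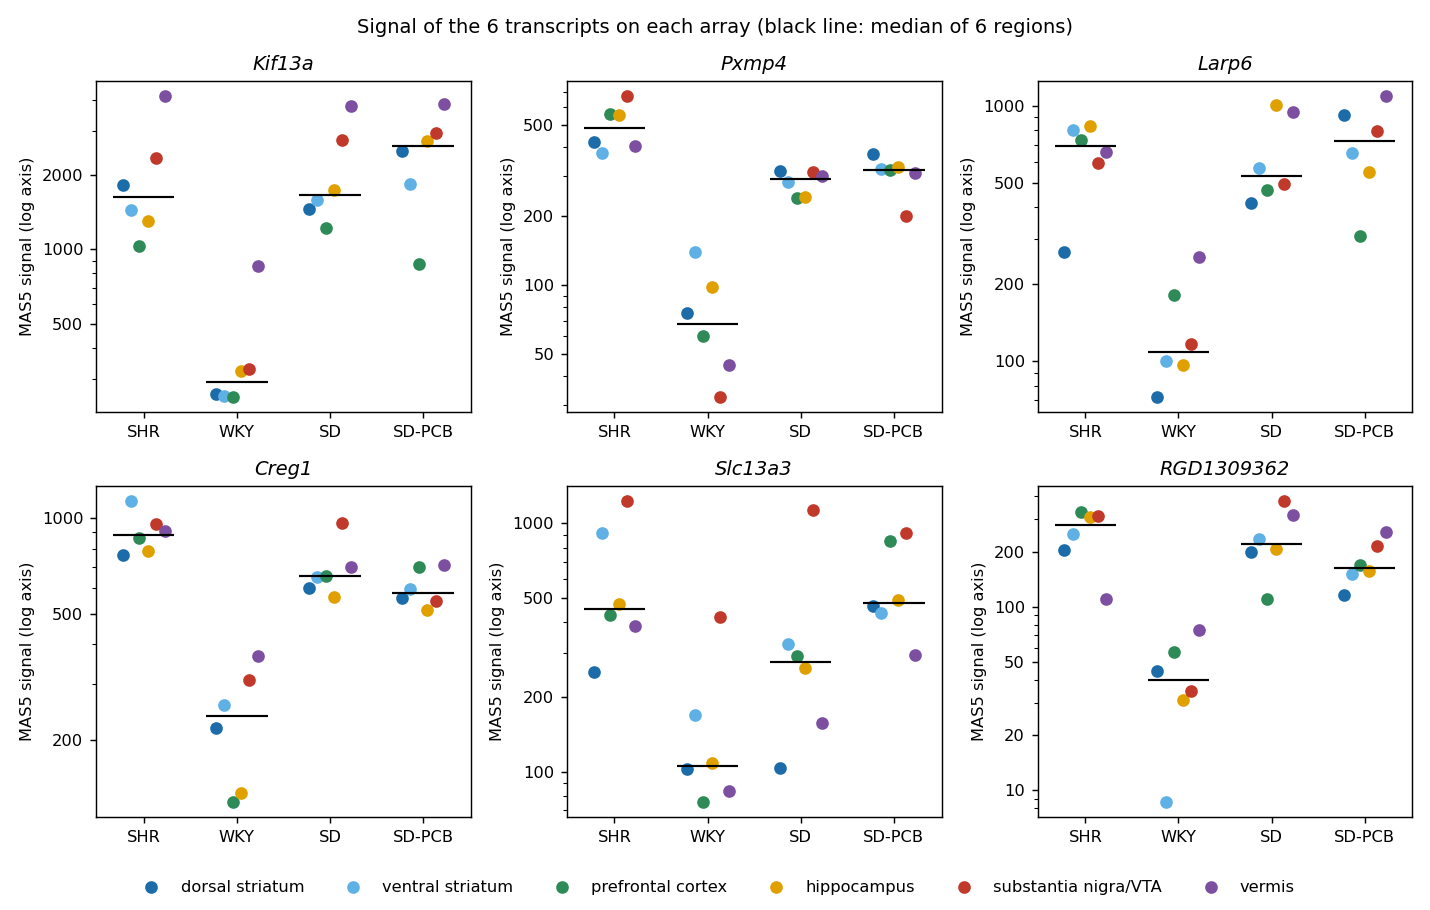
MAS5 signal (log axis) of each transcript on the 24 arrays, by strain group on the horizontal axis and by region in colour; the black line is the median of 6 regions. WKY lies below every other group with no overlap for Kif13a, Pxmp4, Larp6, Creg1 and RGD1309362, and overlaps for Slc13a3.

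In 5 of the 6 transcripts all WKY arrays lay below all SHR arrays, which held for 3.28% of the 15521 probe sets tested, and all 6 passed the adjusted p for SHR above WKY, as 16.4% did; since this contrast chose them, nothing is read from either count. All WKY arrays also lay below all SD arrays in the same 5 transcripts (1.35% of probe sets tested) and below all SD-PCB arrays in those 5 (2.03%). WKY minus SD, which shares the WKY arrays with the contrast that chose the transcripts, was -2.50 ± 0.16 for Kif13a, -2.05 ± 0.26 for Pxmp4, -2.29 ± 0.28 for Larp6, -1.62 ± 0.17 for Creg1, -1.08 ± 0.26 for Slc13a3 and -2.64 ± 0.38 for RGD1309362. WKY was the lower of both in every region for all 6.

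Whether Sprague-Dawley rats side with SHR or WKY was tested as SD minus the midpoint of SHR and WKY, a contrast that is orthogonal to SHR minus WKY in this design. A value above 0 puts SD nearer to SHR on the log2 scale, on which every side below is given. The transcripts also had to pass a filter on mean log2 signal over all 24 arrays, both Sprague-Dawley groups among them. A high Sprague-Dawley signal could help a transcript that is dim in WKY to pass, so the side of SD is not free of the choice. By limma with Benjamini-Hochberg adjustment over all probe sets tested, SD lay above the midpoint in 5 of 6 transcripts and below it in none. Over all probe sets tested 10.4% were above and 13.3% below. Among the 2542 probe sets called higher in SHR than in WKY, 7.08% were called with SD above the midpoint and 23.3% with SD below. By sign alone, without a test, SD lay above the midpoint in 45.5% of all probe sets tested, in 33.2% of those 2542, and in 15 of the 17 called with a log2 difference of at least 2, which include these 6.

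Kif13a was farthest above the midpoint, with 1.30 ± 0.14 (adjusted p = 8.04e-07, above in 6 of 6 regions). RGD1309362 followed with 1.28 ± 0.33 (adjusted p = 0.00731, 5 of 6 regions), the prefrontal cortex being the exception at -0.31. Larp6 gave 1.14 ± 0.25 (adjusted p = 0.00171, 6 of 6). Creg1 gave 0.61 ± 0.15 (adjusted p = 0.00488, 6 of 6). Pxmp4 gave 0.63 ± 0.22 (adjusted p = 0.0425, 6 of 6), a call that ended under most other settings (adjusted p up to 0.206) and without the arrays of any 1 region other than the ventral striatum (0.52 to 0.74). With the median signal of each array as a covariate Larp6 (adjusted p = 0.288), Creg1 (0.227) and RGD1309362 (0.345) also lost their calls, and Kif13a kept its own. The covariate moves with the groups, and standard errors rose with it, for Larp6 from 0.25 to 0.40 and for Creg1 from 0.15 to 0.25. Calls lost with it cannot tell array signal from group. Creg1 lost its call with median centring too (0.35, adjusted p = 0.0731), and for RGD1309362 the exact two-sided sign-flip permutation over 6 regions gave p = 0.0625, where 0.03125 is the smallest possible.

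Slc13a3 was called on neither side. SD minus the midpoint was 0.079 ± 0.22 (adjusted p = 0.834), with SD nearer to SHR in prefrontal cortex, hippocampus and substantia nigra/VTA and nearer to WKY in both striatal regions and the vermis. In dorsal striatum SD gave 104 and WKY 103, against 251 in SHR. In substantia nigra/VTA SD gave 1129, close to 1230.4 in SHR and above 420 in WKY. The sign of the mean turned with quantile normalization (-0.15), with median centring (-0.18), which moves the median of all probe sets from -0.036 to -0.29, and without the arrays of prefrontal cortex (-0.046) or substantia nigra/VTA (-0.036).

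**Figure D2:**
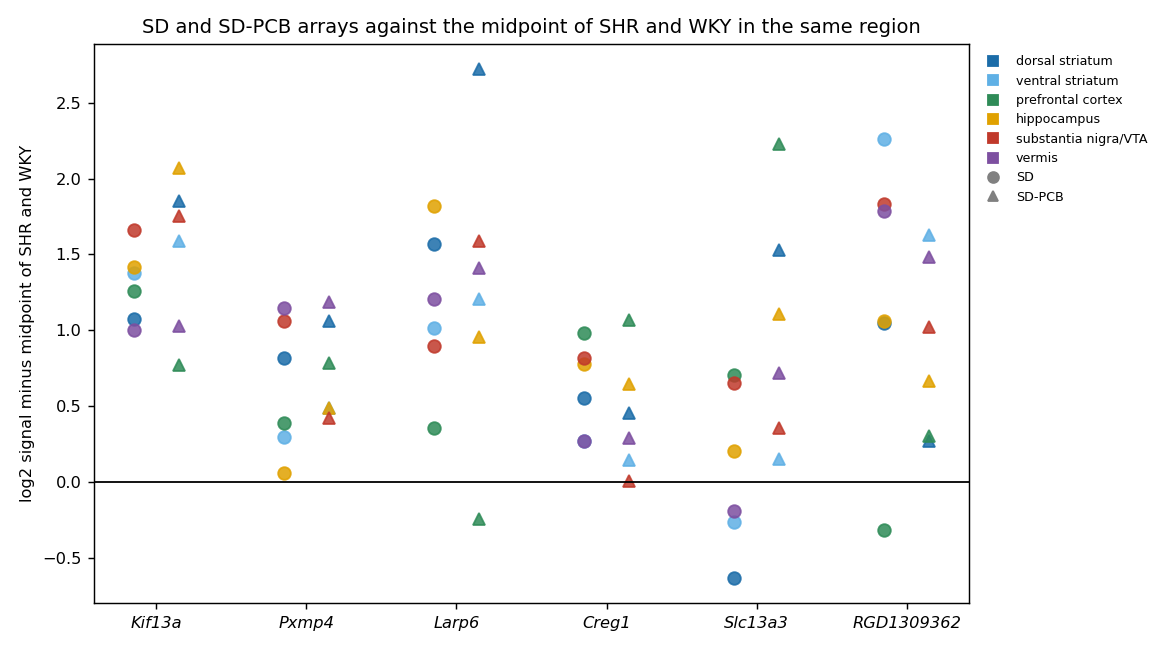
Log2 signal of the SD array (circles) and the SD-PCB array (triangles) minus the midpoint of the SHR and WKY arrays of the same region, for each transcript; colours are regions and the line at 0 is the midpoint. Of 36 SD points 32 lie above the line, and of 36 SD-PCB points 35 do. The points of a group come from the same rats. By mean over regions, SD lay above the midpoint in 45.5% of all probe sets tested.

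The exposed Sprague-Dawley rats are a separate set of 4 animals and were read against the same SHR and WKY arrays. SD-PCB minus the midpoint was 1.51 ± 0.14 for Kif13a (adjusted p = 4.80e-08), 1.27 ± 0.25 for Larp6 (adjusted p = 2.96e-04), 1.01 ± 0.22 for Slc13a3 (adjusted p = 0.00100), 0.90 ± 0.33 for RGD1309362 (adjusted p = 0.0338), 0.74 ± 0.22 for Pxmp4 (adjusted p = 0.00998) and 0.44 ± 0.15 for Creg1 (adjusted p = 0.0235). All 6 passed on the SHR side and none on the WKY side, where 18.2% and 24.6% of all probe sets did. With median array signal as a covariate none of the 6 passed (lowest adjusted p 0.0931). That covariate moves with the groups, and standard errors rose with it, from 0.14 to 0.35 for Kif13a and from 0.25 to 0.63 for Larp6. The Larp6 value itself became 1.85, while that of Pxmp4 became 0.041. Calls lost with it therefore cannot tell array signal from group. The call of Creg1 ended without the arrays of dorsal striatum, hippocampus or prefrontal cortex (0.31 to 0.43), and that of RGD1309362 without hippocampus, substantia nigra/VTA, vermis or ventral striatum (0.75 to 0.94). Only Larp6 had a region on the WKY side, the prefrontal cortex, where SD-PCB gave 308, SHR 731 and WKY 182.

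Exposure itself is read from SD-PCB minus SD, which uses no array of the contrast that chose the transcripts. Slc13a3 was higher in exposed rats by 0.94 ± 0.26 (adjusted p = 0.00834, higher in 5 of 6 regions), from 104 to 465 in dorsal striatum and from 294 to 848 in prefrontal cortex, but from 1129 down to 918 in substantia nigra/VTA. The ranges of both groups overlapped. This call ended without the dorsal striatum arrays (0.69, adjusted p = 0.0565). With median array signal as a covariate the sign turned, at a far larger standard error (-0.31 ± 0.83). The exact sign-flip permutation over 6 regions gave p = 0.0625. The other 5 transcripts did not pass: 0.21 ± 0.16 for Kif13a (adjusted p = 0.334), 0.11 ± 0.26 for Pxmp4 (0.773), 0.13 ± 0.28 for Larp6 (0.762), -0.18 ± 0.17 for Creg1 (0.472) and -0.38 ± 0.38 for RGD1309362 (0.477). Thus 1 of 6 was called higher and none lower, beside 14.7% and 16.9% of all probe sets tested. Centring each array on its median moved the median of SD-PCB minus SD over all probe sets from -0.013 to 0.71, and relative to that median Slc13a3 stood at 0.95 and the others between -0.37 and 0.23. Under that centring Kif13a, Pxmp4 and Larp6 passed as higher too, as did Creg1, whose sign turned, and 10991 probe sets were called higher and 535 lower, against 2274 and 2620 as deposited.

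Of the 10 probe sets that the platform annotation gives to the 6 genes, 6 passed the filter on mean log2 signal and have been described; Larp6, Slc13a3 and RGD1309362 have no other. The 4 that remain, whose mean log2 signal was under the filter, belong to Kif13a, Pxmp4 and Creg1. Detection calls are not given, so how far these dim signals lie above background is unknown. For SD-PCB minus SD, 8599 probe sets were called lower and 2480 higher without the filter, against 2620 and 2274 with it. Lower calls thus grew far more than higher calls once dim probe sets entered. A drop in SD-PCB in the dim probe sets below is therefore not read as a trait of these genes.

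Kif13a 1390319_at went the same way as the bright probe set between strains but not between exposed and unexposed rats. It gave 125 to 331 in SHR (median 160.5), 136 to 329 in SD (median 241), 29.4 to 242 in WKY (median 90.9) and 20.4 to 168 in SD-PCB (median 44.3). SHR minus WKY was 1.06 ± 0.32 (standard error over 6 regional differences, as for the other 3 dim probe sets), positive in 6 of 6 regions and from 0.41 to 2.35. SD-PCB minus SD was -2.22 ± 0.36 here, against 0.21 in the bright probe set, and negative in 6 of 6 regions; SD-PCB arrays also had the lowest median signal over all probe sets. For 1390319_at SD-PCB minus the midpoint was -1.29 ± 0.47, above 0 in 1 of 6 regions, against 1.51 in the bright probe set. Kif13a 1397272_at was dimmer, 1.59 to 131 over all arrays, and showed no steady difference between SHR and WKY (0.059 ± 0.99, positive in 3 of 6 regions). Its SD-PCB minus SD was -1.11 ± 0.27, negative in 6 of 6 regions.

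The second Pxmp4 probe set, 1393421_at, gave 50.7 to 148 in SHR and 13.3 to 94.5 in WKY. SHR minus WKY was 1.33 ± 0.51, positive in 5 of 6 regions, and in vermis it was -0.71. SD, with 18.5 to 148, spread over both, and SD minus the midpoint was 0.0011 ± 0.69. The direction between SHR and WKY was that of the bright probe set in 5 regions, and the place of SD could not be read from it. SD-PCB minus SD was -0.11 ± 0.53, positive in 3 of 6 regions.

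The second Creg1 probe set, 1375428_at, did not show the difference between SHR and WKY. Its mean was 93.4 ± 59.5 in SHR and 83.8 ± 38.1 in WKY (SD of signals, n = 6 regions), with overlapping ranges that reached 158 and 151, and SHR minus WKY was -0.16 ± 0.66, from -2.84 in substantia nigra/VTA to 1.58 in hippocampus. In 1375428_at SD minus the midpoint was 0.79 ± 0.22, positive in 6 of 6 regions. SD-PCB minus SD was -0.93 ± 0.18 there, negative in 6 of 6 regions, against -0.18 in the bright probe set. Across the 24 arrays the log2 signals of bright and dim probe sets had Pearson r of 0.262 and 0.102 for Kif13a, 0.345 for Pxmp4 and 0.078 for Creg1.

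**Figure D3:**
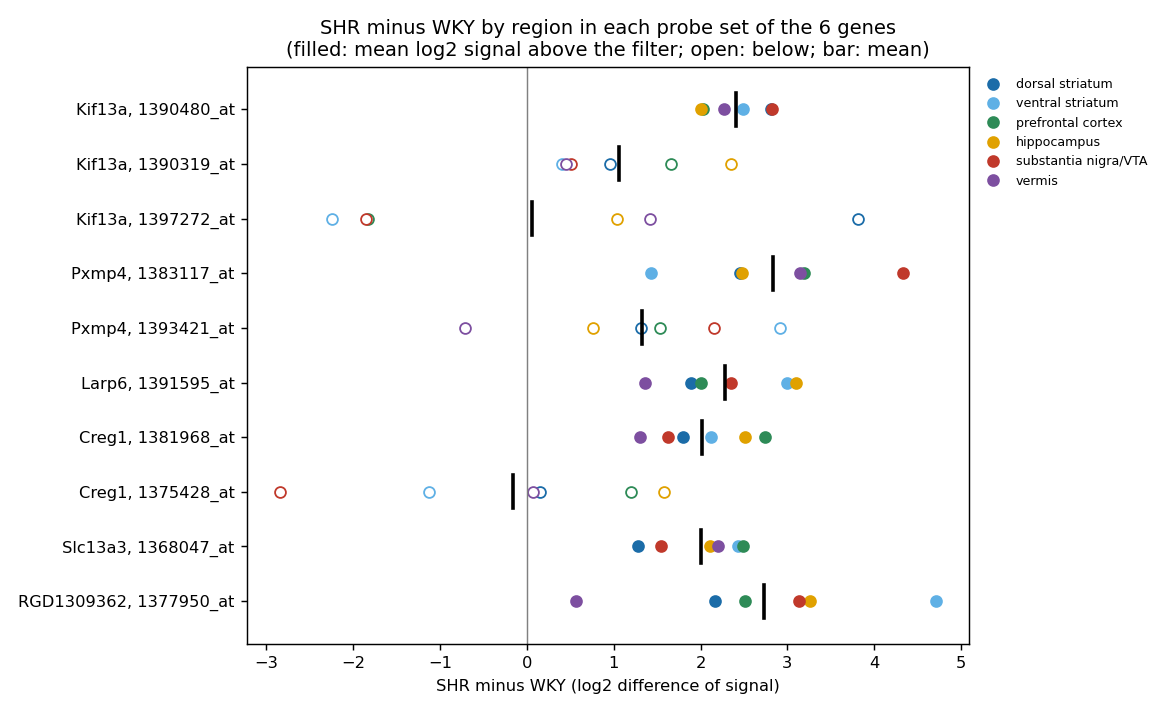
SHR minus WKY (log2) in each of 6 regions for the 10 probe sets; filled points mark probe sets with a mean log2 signal above the filter, open points those below, and the bar is the mean. The 6 filled sets lie above 0 in every region, from 0.56 to 4.71, while the open sets of Kif13a 1397272_at and Creg1 1375428_at straddle 0.

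Each region was set against the average of the 5 that remain, a contrast which does not use the difference between strains, and called at an adjusted p under 0.05 with a log2 difference of at least 1. Of 36 values 2 were called, 1 each for Kif13a and Slc13a3, so 2 of 6 transcripts had a called region, near the 22.3% of all probe sets tested. Kif13a was higher in vermis by 1.29 ± 0.15 (adjusted p = 2.51e-07; 6.3% of probe sets were called higher there), and the vermis array was the brightest in all 4 groups, from 859.6 in WKY to 4160 in SHR. With median centring the value was 0.97. Slc13a3 was higher in substantia nigra/VTA by 1.71 ± 0.25 (adjusted p = 1.03e-05; 2.79% of probe sets were called higher there), again in all 4 groups, from 420 in WKY to 1230.4 in SHR.

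Other regional differences were smaller than the limit of 1. Kif13a was -0.97 ± 0.15 in prefrontal cortex (adjusted p = 5.50e-05), Slc13a3 -0.91 ± 0.25 in dorsal striatum (adjusted p = 0.00977) and -0.83 ± 0.25 in vermis (adjusted p = 0.00785), and Larp6 0.74 ± 0.27 in vermis (adjusted p = 0.0270). For Pxmp4, Creg1 and RGD1309362 no region passed even the adjusted p, and their values lay between -0.58 and 0.44.

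**Figure D4:**
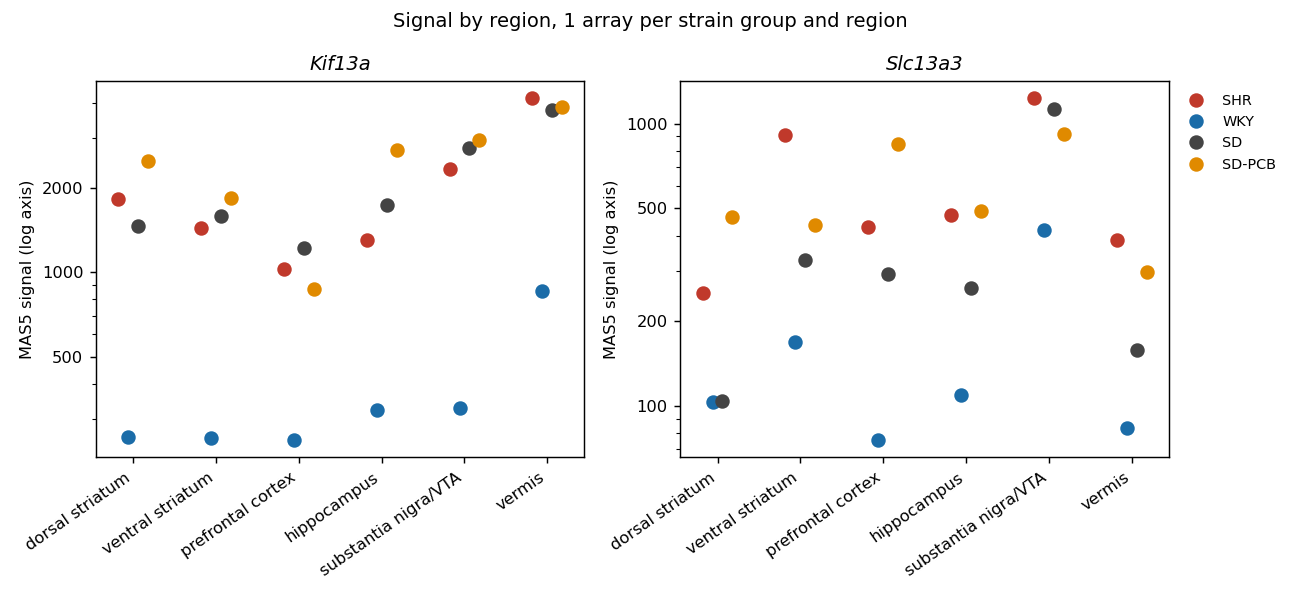
Signal (log axis) of Kif13a and Slc13a3 by region, with 1 array per strain group and region in colour. WKY lies lowest in every region for both, vermis is brightest for Kif13a and substantia nigra/VTA for Slc13a3 in all 4 groups, and SD meets WKY for Slc13a3 in dorsal striatum.

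Over the 24 arrays the transcripts ran together, with Pearson r of log2 signal between 0.517 and 0.875, highest for Kif13a with Larp6 and lowest for Larp6 with Slc13a3; each shares arrays and strain groups with the rest, and they were chosen for the same contrast. The tested genes most like each one were found by the same measure. Ephx2, soluble epoxide hydrolase, ranked 1 for Pxmp4 (0.855), Creg1 (0.928) and RGD1309362 (0.876), 2 for Larp6 (0.857) and 3 for Kif13a (0.853). It too was lowest in WKY, with a mean of 537 in SHR, 445 in SD, 394 in SD-PCB and 53.3 in WKY. Actr8, a subunit of the INO80 chromatin remodelling complex, ranked 2 for Pxmp4 (0.837) and Creg1 (0.878) and 3 for RGD1309362 (0.835), with means of 1378 in SHR, 1211 in SD, 1077 in SD-PCB and 434 in WKY. Others were Sar1b, a GTPase of transport vesicles, for Kif13a (0.868), Esd, esterase D, for Larp6 (0.832) and Creg1 (0.860), and the transcriptional regulator Hes6 for RGD1309362 (0.849). Kif13a and Larp6 each ranked 1 for the other, and Creg1 ranked 3 for Pxmp4 (0.811).

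Slc13a3 kept other company: the endothelial receptor Kdr (0.845), the organic anion carrier Slco1a4 (0.840) and vitronectin, Vtn (0.822). All 3 stand on the list of endothelial and pericyte markers. Of 9 tested there, 8 were higher in SHR than WKY and none lower, with a median log2 of 1.02. Over all genes tested 20.7% were higher and 13.0% lower, with a median of 0.11. The summed signal of that list was 4406 to 9282 in SHR, 2015 to 5570 in WKY, 2730 to 8394 in SD and 5930 to 9814 in SD-PCB, and its part in the Slc13a3 values was not tested. In these dissected samples fewer cells of a type and less RNA per cell cannot be told apart.

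Meningeal and fibroblast markers moved as well, 8 of 9 higher in SHR and none lower (median 1.29), beside 20.7% and 13.0% over all genes tested. Their sum was 4081 to 20070.0 in SHR, 2366 to 7625 in WKY, 4074 to 23970.0 in SD and 4364 to 14320.0 in SD-PCB. Of the blood list Hbb alone was tested, and it was higher in SHR. Microglia markers had 4 of 8 higher (median 0.66) and astrocyte markers 4 of 10 higher and 1 lower (0.14). Oligodendrocyte markers had 2 of 12 higher (0.19), neuronal markers 1 of 7 higher (-0.014) and choroid plexus markers none of 3 either way (0.13). These last 3 counts lay near or under the share of 20.7% called higher over all genes tested. SD was called above the midpoint in 4 of 9 meningeal markers and below in none, beside 10.4% and 13.3% of all probe sets tested. By sign it lay above in all 8 meningeal markers higher in SHR. Endothelial and pericyte markers had 1 of 9 called above and 1 below, and astrocyte markers 5 of 10 above and none below. Microglia markers had none of 8 above and 1 below, oligodendrocyte markers 3 of 12 above and none below, and neuronal markers 2 of 7 each way. No marker sum was 0 on any array, and the part of these lists in the 6 transcripts was not tested.

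Genes that work beside the 6 are given by 1 probe set each, from lists of fixed membership. Over all 9009 genes tested, 20.7% were called higher in SHR than WKY and 13.0% lower. Of the kinesin-3 relatives of Kif13a 1 of 4 was higher and none lower (median -0.044): Kif1c, a motor of the same family, at 0.63 ± 0.16 (adjusted p = 0.00641), which also had SD above the midpoint (0.68 ± 0.14, adjusted p = 0.00128). Of 19 genes of the peroxisomal membrane and its assembly 3 were higher and none lower (median 0.27). They were the fission factor Fis1 (0.47 ± 0.13), the import receptor Pex7 (0.87 ± 0.25) and the membrane channel Pxmp2 (0.44 ± 0.17), and SD minus the midpoint was -0.44 (adjusted p = 0.00523), -0.37 (0.238) and -0.039 (0.875) in that order.

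Of the La-related proteins beside Larp6 none of 5 was higher and 1 was lower (median -0.24), Ssb, the La protein itself, at -0.47 ± 0.085 (adjusted p = 3.41e-04). Collagen I and its processing genes had 4 of 9 higher and 1 lower (median 0.27). Col1a1 (1.38 ± 0.23), Col1a2 (1.43 ± 0.29) and Col3a1 (1.01 ± 0.24) were higher. They also stand on the meningeal list. For them SD minus the midpoint was 0.20 (adjusted p = 0.502), 0.84 (0.0192) and 0.85 (0.00466) in that order. Of the 4 higher in SHR, SD lay above the midpoint by sign in 3 and below in 1. The others called, named after their values were seen, were the collagen chaperone Serpinh1 (0.60 ± 0.20) and, lower, the prolyl isomerase Fkbp3 (-0.22 ± 0.083).

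Lysosomal proteins, the company of Creg1, had 9 of 18 higher and none lower (median 0.39), among them the hexosaminidase subunit Hexa (0.71 ± 0.12), prosaposin, Psap (0.65 ± 0.11), and the protective protein Ctsa (0.79 ± 0.15). Their size was under that of Creg1 (2.02), and SD minus the midpoint was -0.40 ± 0.10 for Hexa (adjusted p = 0.00723), -0.034 ± 0.097 for Psap (0.832) and -0.27 ± 0.13 for Ctsa (0.142), where Creg1 had 0.61.

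For Slc13a3, 1 of 8 genes of dicarboxylate and N-acetylaspartate handling was higher and none lower (median 0.21), the related carrier Slc13a4 (1.09 ± 0.40, adjusted p = 0.0418), which is on the meningeal list too. Because the synonym of RGD1309362 resembles the names of interferon-induced GTPases, a list of these and of interferon response genes was read: 1 of 6 tested was higher and none lower (median 0.043), the transcription factor Stat2 (0.63 ± 0.17, adjusted p = 0.00784), with SD at -0.34 from the midpoint (adjusted p = 0.0932).

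Of the 5 annotated genes on either side of each of the 6 in GRCr8, 60 in all, 9 were tested, 3 of them higher in SHR and 2 lower. Over all genes tested 20.7% were higher and 13.0% lower, and with only 9 neighbours tested nothing is read from these counts. Rcsd1, near Creg1, was higher by 1.31 ± 0.30 (adjusted p = 0.00283), Slc35c2, near Slc13a3, by 0.71 ± 0.22 (adjusted p = 0.0172) and Lrrc49, near Larp6, by 0.62 ± 0.24 (adjusted p = 0.0488). Tp53rka, next to Slc13a3, was lower (-0.88 ± 0.27, adjusted p = 0.0162), as was Chsy3, near RGD1309362 (-1.11 ± 0.38, adjusted p = 0.0280). The single tested neighbour of Kif13a (0.010 ± 0.20) and that of Pxmp4 (0.34 ± 0.21) did not pass. None of the 9 reached the difference of the gene it neighbours.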

How the data were processed

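Signals were deposited as linear intensity values of 31099 probe sets on 24 Affymetrix Rat RAE 230 2.0 arrays, made with MAS5 per the submitters' processing notes (version not stated); the labels name Qiagen RNeasy for extraction and Nugen's Ovation for labelling. Trimmed means of the arrays lie between 500.1 and 500.2. The authors gave no detection calls. After removing 57 control probe sets, 15521 of 31042 with a mean log2(signal + 1) at or above the median were tested. Of those kept, 20826 have 1 symbol, 436 several and 9780 none.

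An additive limma model (3.58.1, R 4.3.3) held strain group plus region and left 15 residual degrees of freedom. Variances were moderated with a mean trend, tests were two-sided, and p-values were adjusted by Benjamini-Hochberg over the tested probe sets, with 0.05 as threshold. Fold changes are on the log2(signal + 1) scale. A gene is represented by its brightest probe set. The chain was tested on simulated data. Signed differences rest on 24 arrays, whose number limits precision. The transcripts, the gene lists and the alternatives were chosen with earlier results of these data known. Named genes are the 6, those next in order, up to 3 per list by p, the 3 most alike, and called neighbours; region markers, Hbb, Serpinh1 and Fkbp3 were added after their values were seen.

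Alternatives were quantile, median and cyclic loess normalization, a pseudocount of 16, no filter, the upper 25%, no trend, array weights, median array signal as a covariate, fits on fewer groups, leaving out each region and an exact sign-flip permutation over regions.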

Additional observations from a re-analysis of the deposited data

Results flagged for a closer look

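Of 40 sets of 6 arrays (10 probe sets in 4 groups), 6 held an array far from the other 5; chance gives about 1 in 20, and the arrays of a set differ in region. The vermis array was far above the rest for Kif13a in WKY (859.6) and for Kif13a 1390319_at in SHR (330.6). The substantia nigra/VTA array was far above the rest for Slc13a3 in WKY (419.8) and in SD (1129) and for Creg1 in SD (960.0), and far below for Pxmp4 in SD-PCB (199.96).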

How the results depend on the processing

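For SD minus the midpoint, Kif13a kept its direction and call under every alternative run. Pxmp4 kept its direction but lost its call with quantile normalization (0.51), median centring (0.37), cyclic loess (0.62), pseudocount 16 (0.53), no filter (0.63), array weights (0.51), the covariate of median array signal (1.01) and only the 3 groups of the contrast (0.63). With the covariate Larp6 (0.82), Creg1 (0.57) and RGD1309362 (1.02) lost theirs, as did Creg1 with median centring (0.35) and RGD1309362 in the exact sign-flip permutation test (1.28, p = 0.0625). Slc13a3 turned with quantile normalization (-0.15) and median centring (-0.18). Leaving out 1 region gave 0.52 to 0.74 for Pxmp4 and -0.046 to 0.22 for Slc13a3.

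For SD-PCB minus the midpoint all 6 lost their calls with the covariate: Kif13a 1.03, Pxmp4 0.041, Larp6 1.85, Creg1 0.50, Slc13a3 0.21 and RGD1309362 1.37. Larp6 did so in the exact sign-flip permutation test (1.27, p = 0.0625). Leaving out 1 region gave 0.31 to 0.52 for Creg1 and 0.75 to 1.02 for RGD1309362.

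For SD-PCB minus SD, median centring called Kif13a (0.94), Pxmp4 (0.84), Larp6 (0.85) and, turned, Creg1 (0.55). The covariate turned Kif13a (-0.53), Pxmp4 (-0.97), Slc13a3 (-0.31) and RGD1309362 (0.36). RGD1309362 also turned with quantile normalization (0.097), median centring (0.34) and cyclic loess (0.21). Slc13a3 missed the threshold in the exact sign-flip permutation test (0.94, p = 0.0625). Leaving out 1 region gave 0.69 to 1.18 for Slc13a3 and -0.075 to 0.33 for Larp6.

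Probe sets called higher and lower moved too. For SD minus the midpoint, 1620 and 2060 became 630 and 6014 with median centring and 292 and 309 with the covariate, and those higher became 2516 without a filter and 988 in the upper 25%. For SD-PCB minus the midpoint, 2819 and 3824 became 7966 and 943 with median centring and 250 and 401 with the covariate, and those lower became 7170 without a filter and 1539 in the upper 25%. For SD-PCB minus SD, 2274 and 2620 became 10991 and 535 with median centring and 0 and 0 with the covariate. Those higher became 1459 with only those groups, and those lower 1645 with quantile normalization, 8599 without a filter and 952 in the upper 25%. Fewer or more probe sets enter with another filter; otherwise the cause was not tested.

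Arrays pair by region across groups, and region is a term of the fit and the pairing of the sign-flip test; the labels carry no other replicate number. With 1 array per group and region and no detection calls, dim signals cannot be told from background.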
